A study of Saccharomyces pastorianus with 12 samples.

Results

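Genes for cytosolic translation factors and aminoacyl-tRNA synthetases were followed through a brewery propagation of the lager yeast Saccharomyces pastorianus, strain CB11, on single-colour arrays. The members came from a list of 54 genes of these classes. Of the 54, 52 had a S. cerevisiae probe set of their own name in the array annotation, among 5635 genes with a probe set, and all 52 were bright enough to be tested. They comprised 24 initiation factor genes, counted with PAB1 for the poly(A)-binding protein, 10 elongation and termination factor genes, counted with STM1 for a ribosome-binding protein, and 18 synthetase genes. No probe set carried the name of TIF1 or TEF1. Their duplicates TIF2, for the RNA helicase eIF4A, and TEF2, for the elongation factor eEF1A, were read by probe sets with an ending that marks probes shared between similar genes, as was EFT2, for eEF2.

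The yeast was grown aerobically in an 8 hl vessel and then moved into a 140 hl vessel. The wort held 80% malt and 20% maltose adjunct at 17° Plato, carried zinc at 0.5 mg per l, stayed at 20 °C and was oxygenated to 7 to 8 mg per l dissolved oxygen. All 4 groups shared the strain, wort and vessel: 3 samples (A, B and C) at 0h, directly after inoculation, and 3 each at 4h, 8h and 30h, with 1 array per sample. The labels do not say that the 3 samples came from separate propagations. The p-values therefore cover the spread among these samples alone, which may be technical. S. pastorianus is a hybrid, and each signal sums whatever bound to probes designed on S. cerevisiae. The RNA came from whole cultures, in which fewer cells of a kind and less of an mRNA per cell cannot be told apart.

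Translation starts when eIF2 brings the initiator tRNA to the small ribosomal subunit and the eIF4 factors recruit the capped mRNA. The subunit then scans to the start codon. During elongation eEF1A delivers charged tRNAs, eEF2 moves the ribosome along the mRNA and eEF3, a factor that fungi need, clears the exit site. The release factors eRF1 and eRF3 end the chain, and the synthetases charge each tRNA with its amino acid. In growing yeast many of these genes are transcribed strongly, together with those for ribosomal proteins.

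The arrays differed in scale and quality. Deposited signals had a trimmed mean of 22.6 to 377 per array, so log2 signals were quantile normalised over the 5503 tested genes, and a level is relative to the other genes of its array. The SD of log2 signals over tested genes was 1.91 to 2.03 on the early arrays (0h, 4h) and 1.21 to 1.33 on the late ones. Spearman's rho over the tested genes, which are not independent, was 0.205 to 0.402 when an early array was set against a late one, but 0.848 to 0.91 across the 2 late times. What the arrays and what the yeast contributed to the step between 4h and 8h cannot be told apart. Array 0h A stood apart from 0h B and 0h C: the 3′ to 5′ signal ratio, which rises as RNA breaks down, over 8 control genes had medians of 35.5, 1.88 and 6.96 for 0h A, B and C, and of 1.30 to 2.02 for the later arrays. Between 48 and 52 members per array exceeded the array's 95th percentile of Schizosaccharomyces pombe probe sets, which served as background because the culture should hold no such RNA.

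The members ranked high among the genes of an array at 0h and 4h and near the middle at 8h and 30h. Their median percentile, which does not depend on the normalisation, was 88.1 to 94.0 on the 0h arrays, 87.8 to 88.7 at 4h, then 55.4 to 60.9 at 8h and lastly 43.6 to 45.6 at 30h. Initiation factors had median percentiles of 80.0 to 91.3, 80.1 to 80.8, 50.9 to 57.0 and 39.4 to 43.4 at the 4 times in order. Elongation and termination factors stood at 94.6 to 98.1 at 0h, 97.5 to 97.9 at 4h, then 80.8 to 87.7 at 8h and lastly 63.3 to 75.4 at 30h. Synthetases stood at 90.1 to 93.1, 88.7 to 90.0, 56.6 to 60.5 and 43.3 to 48.6 in the same order. In each class the medians at 8h and at 30h lay below all those at 0h and 4h. Because a probe set's brightness depends on its sequence, these ranks were followed over time within a class and not set between classes.

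**Figure D1:**
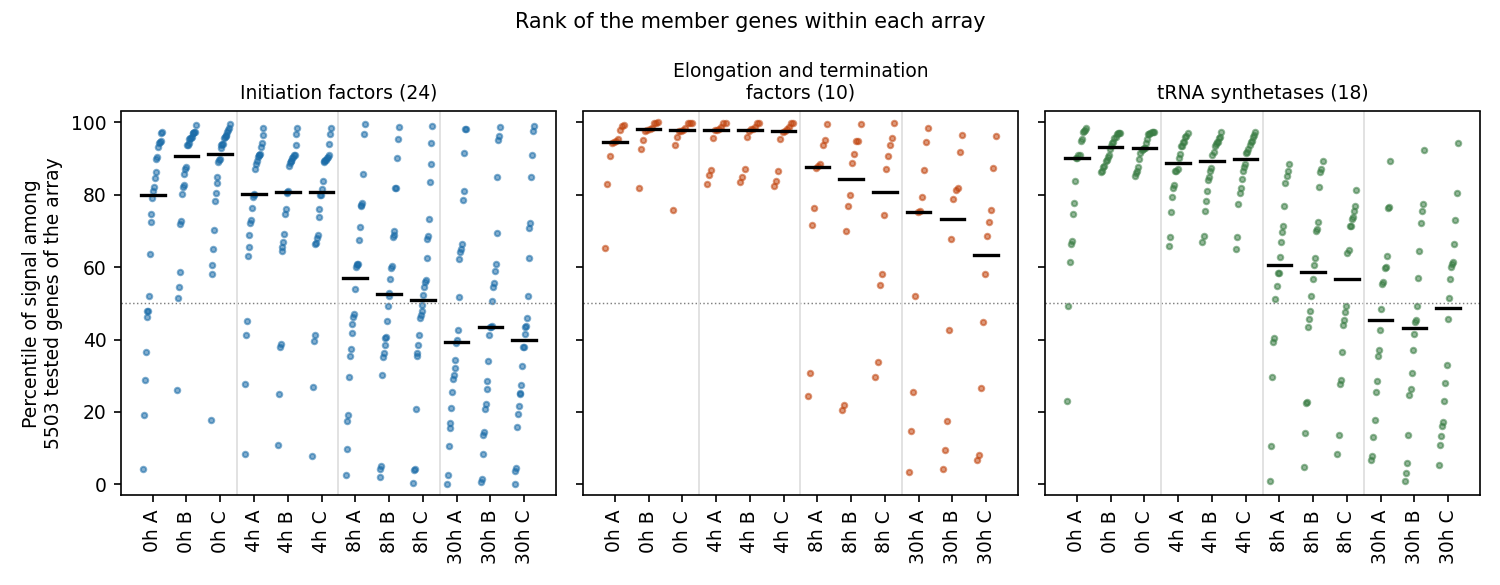
Percentile of each member's signal among the 5503 tested genes of its array (y axis, 0 to 100), for the 12 arrays in time order (x axis), in 1 panel per class. Each point is a gene, black bars are class medians and the dotted line marks the 50th percentile. The medians of all members lay at 87.8 to 94.0 on the 0h and 4h arrays and at 43.6 to 60.9 on the 8h and 30h arrays.

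An F test for any difference between the 4 times was passed by 47 of the 52 members, against 78.4% of all tested genes. It was passed by 20 of 24 initiation factors, 10 of 10 elongation and termination factors and 17 of 18 synthetases. The 5 members that did not pass were GCD1 and GCD2 of the exchange factor eIF2B, NIP1 of the scaffold eIF3, TIF2 and the methionyl-tRNA synthetase gene MES1.

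**Figure D2:**
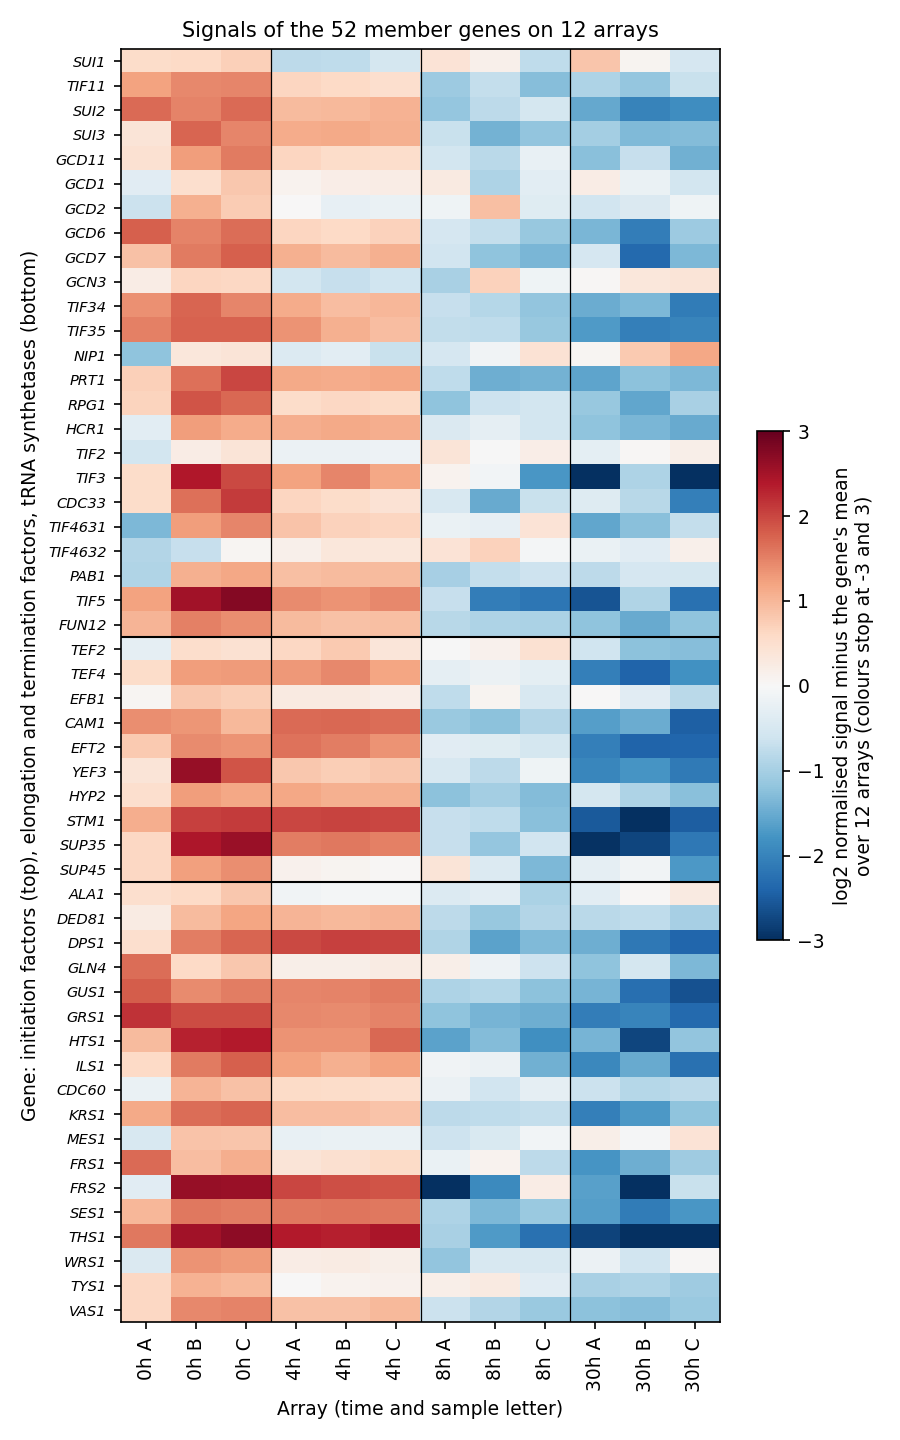
Log2 normalised signal of each member minus its mean over the 12 arrays (colour, from -3 in blue to 3 in red), with 1 line per gene grouped by class from top to bottom and 1 column per array in time order. Most lines turn from red at 0h and 4h to blue at 8h and 30h, while in SUI1, GCN3, GCD2, NIP1, TIF2, TIF4632, ALA1 and MES1 the means at 8h and 30h do not both lie below those at 0h and 4h, and 0h A is paler than 0h B and 0h C for many genes.

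During the first 4 h few members changed, and those that did were lower. Of the 52, 6 fell and 0 rose at 4h against 0h (limma, adjusted p under 0.05). Among all tested genes 11.8% were called lower and 11.8% higher, so the members' share of 11.5% lower was near the background. At an unadjusted p under 0.05, 14 were lower and 2 higher, against 994 and 1049 of the 5503 tested genes (limma). The median log2 change of the members was -0.35, against 0.02 for all tested genes. By class, 4 of 24 initiation factors fell (median -0.46), as did 2 of 18 synthetases (median -0.34), and none of the 10 elongation and termination factors passed (median 0.19, with 1 lower at an unadjusted p under 0.05). No test was made between the classes.

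SUI1, for eIF1, which guards start codon choice during scanning, had signals of 342, 349 and 408 at 4h, against 862, 887 and 965 at 0h, and fell by 1.31 ± 0.34 on the log2 scale (SE, n = 3 arrays per time, adjusted p = 0.0135, limma). GCN3, the regulatory alpha subunit of eIF2B, had 49.4, 45.2 and 48.4 at 4h, against 85.4, 113 and 111 at 0h, and fell by 1.10 ± 0.34 (adjusted p = 0.0314). GCD6, the catalytic epsilon subunit of the same factor, had 137, 132 and 140.1 at 4h, against 303, 245 and 281 at 0h, a fall of 1.02 ± 0.28 (adjusted p = 0.0173). In each of the 3 genes every 4h array lay below every 0h array. That was a condition for listing a gene among the largest changes, so it is no further support. It also held for 25.1% of all tested genes. TIF11, for eIF1A, the partner of eIF1 in scanning, fell by 0.79 ± 0.22 (adjusted p = 0.0207), and the tyrosyl- and alanyl-tRNA synthetase genes TYS1 and ALA1 fell by 0.80 ± 0.22 and 0.71 ± 0.23 (adjusted p = 0.02 and 0.0419). All 6 calls ended without 4h A or 4h B, where the highest adjusted p per gene over arrays left out was 0.0545 for SUI1, 0.1 for GCN3, 0.0693 for GCD6, 0.085 for TYS1, 0.0854 for TIF11 and 0.13 for ALA1. Those of GCN3, GCD6, TYS1, TIF11 and ALA1 ended without 4h C too, those of GCN3, TYS1, TIF11 and ALA1 also without 0h B or 0h C, and that of ALA1 also without 30h B.

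Several members had a low signal on 0h A. TIF4631, for the scaffold eIF4G, had 170.4, 151 and 146 at 4h, against 36.9, 225 and 258 on 0h A, B and C, and its change of 0.27 ± 0.55 (adjusted p = 0.751, limma) became -0.61 without 0h A. YEF3, for eEF3, had 1278, 1220.5 and 1267 at 4h, against 958, 4458 and 2705 at 0h, and its change of -0.85 ± 0.41 did not pass (adjusted p = 0.145). Without 0h A, 19 members were lower at 4h, and the calls among the 5503 tested genes also rose, from 648 to 767 lower. Among the 19 were YEF3 (adjusted p = 0.000449, limma), MES1 (0.00235), the lysyl-tRNA synthetase gene KRS1 (0.0213) and CDC33, for the cap-binding protein eIF4E (0.0333). With all arrays MES1 was at -0.61 ± 0.32, KRS1 at -0.61 ± 0.25 and CDC33 at -0.89 ± 0.44 (adjusted p = 0.187, 0.0889 and 0.159). The eIF2 alpha subunit gene SUI2 was at -0.64 ± 0.23 and the eRF1 gene SUP45 at -0.99 ± 0.45 (adjusted p = 0.0598 and 0.121), and both were called with median centring (0.0142 and 0.0394). TEF4, for a gamma subunit of eEF1B, and HYP2, for eIF5A, were at 0.29 ± 0.24 and 0.11 ± 0.25 (adjusted p = 0.418 and 0.772). On the deposited scale, where the median tested gene changed by -1.17, the median member changed by -1.50. There 33 members were lower at 4h, as were 2609 of the 5503 tested genes. The part of RNA quality on 0h A and 0h C in these values was not tested beyond leaving out single arrays.

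Between 4h and 8h most members fell and none rose. At 8h against 4h, 36 of the 52 were lower (69.2%), against 33.9% of all tested genes, and 0 were higher, against 30.7%. At an unadjusted p under 0.05, 38 were lower and 0 higher, against 1958 and 1760 of the 5503 tested genes (limma). The median change was -1.64, against -0.12 for all tested genes. The falls comprised 16 of 24 initiation factors (median -1.47), 7 of 10 elongation and termination factors (median -1.74) and 13 of 18 synthetases (median -1.76). The 4h and 8h arrays of 40 members did not overlap, with 8h lower, as did those of 42.1% of all tested genes.

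The largest falls at 8h against 4h were in synthetases. THS1, for threonyl-tRNA synthetase, had signals of 70.1, 42.1 and 29.0 at 8h, against 705, 692 and 741 at 4h, and fell by 4.01 ± 0.33 (adjusted p = 3.8e-07, limma). DPS1, for the aspartyl enzyme, had 68.2, 41.9 and 51.1 at 8h, against 509.7, 533 and 526 at 4h, and fell by 3.31 ± 0.33. In both genes the 3 arrays of 8h lay below the 3 of 4h, which again was a condition for listing them among the largest changes. GRS1, for the glycyl enzyme, had 92.5, 80.6 and 77.4 at 8h, against 575, 572 and 599.6 at 4h, a fall of 2.80 ± 0.20. HTS1, for the histidyl enzyme, fell by 3.05 ± 0.43 and was above background on 2 of 3 arrays at 8h. FRS2, for the alpha subunit of the phenylalanyl enzyme, had 5.2, 14.3 and 63.2 at 8h, against 218, 208 and 200.4 at 4h. It was above background on 1 of 3 arrays at 8h, and its fall of 3.64 ± 0.90 had the widest error among the members.

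Of the factors, TIF5, for the eIF2 GTPase-activating protein eIF5, had 34.6, 13.4 and 12.4 at 8h, against 150.3, 141 and 151 at 4h, and fell by 3.04 ± 0.50 (adjusted p = 0.000128), with 1 of 3 arrays above background at 8h. STM1, whose protein sits on idle ribosomes, fell by 2.91 ± 0.33, and CAM1, for the other gamma subunit of eEF1B, fell by 2.78 ± 0.27. HYP2 and SUI2 fell by 2.27 ± 0.25 and 1.81 ± 0.23, while KRS1 and TEF4 fell by 1.67 ± 0.25 and 1.56 ± 0.24 (highest adjusted p = 7.69e-05, limma). The falls of CDC33 and YEF3 were 1.43 ± 0.44 and 1.25 ± 0.41 (adjusted p = 0.0118 and 0.0154), and both calls ended without 8h B (adjusted p = 0.0635 and 0.0528). TIF4631 was at -0.74 ± 0.55 (adjusted p = 0.254), though called without 0h A (adjusted p = 0.0154). GCN3, SUP45 and MES1 did not pass, with changes of 0.48 ± 0.34, -0.54 ± 0.45 and -0.17 ± 0.32. With median centring SUP45 was called lower (adjusted p = 0.0163) and GCN3 higher (0.0424), and GCN3 was called higher without 8h A too (0.0161). On the deposited scale TIF4631, SUP45 and MES1 were called lower (adjusted p = 0.0214, 0.00159 and 0.0232, limma), as were 2842 of the 5503 tested genes. There GCN3 was at -0.39 and did not pass. SUI1, which was at 0.61 ± 0.34 (adjusted p = 0.125, limma), was called higher without 8h C (0.0208).

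Between 8h and 30h the falls went on in fewer genes. At 30h against 8h, 11 members were lower (21.2%), against 2.73% of all tested genes, and 0 were higher, against 0.909%. At an unadjusted p under 0.05, 22 were lower and 1 higher, against 496 and 482 of the 5503 tested genes (limma). The median was -0.49, against 0.02 for all tested genes. Calls were more frequent among bright genes: of the 1375 tested genes with the highest mean level 8.73% were lower, and of the 31 members among them 8 were (25.8%). Elongation and termination factors supplied 5 of the calls among 10 genes (median -1.36), synthetases 4 among 18 (median -0.71) and initiation factors 2 among 24 (median -0.37). With single arrays left out, 3 (without 8h B or 30h B) to 20 (without 0h A) members were lower. Median centring left 4 calls among the members, with 6 higher and 43 lower among all tested genes. On the deposited scale 0 members were called, with 3 higher and 2 lower among all tested genes.

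STM1 had signals of 46.2, 22.3 and 47.8 at 30h, against 163, 155 and 111 at 8h, and fell by 1.94 ± 0.33 (adjusted p = 0.00337, limma). EFT2 had 185, 145 and 148 at 30h, against 609.8, 591 and 532 at 8h, and fell by 1.86 ± 0.22 (adjusted p = 0.000174). TEF4 had 94.6, 74.4 and 111 at 30h, against 323, 349 and 318 at 8h, and fell by 1.84 ± 0.24 (adjusted p = 0.000485). These 3 calls held with any 1 array left out, with highest adjusted p of 0.0236 for STM1, 0.00141 for EFT2 and 0.00446 for TEF4. On the deposited scale the 3 changes were -0.98, -0.78 and -0.85 and did not pass (adjusted p = 0.394, 0.393 and 0.413, limma). Others were less firm with arrays left out. SUP35, for the release factor eRF3, fell by 1.81 ± 0.42 (adjusted p = 0.0294), THS1 by 1.38 ± 0.33 (0.0353), TEF2 by 1.23 ± 0.27 (0.0185), FRS1, for the beta subunit of the phenylalanyl enzyme, by 1.15 ± 0.28 (0.0401), GUS1, for the glutamyl enzyme, by 1.08 ± 0.28 (0.0475) and SUI2 by 0.98 ± 0.23 (0.0299). Leaving out 8h B or 30h B ended each of these 6, with highest adjusted p over all arrays left out of 0.106, 0.12, 0.0758, 0.138, 0.157 and 0.112 in that order. Calls of this group also ended without 0h B (GUS1), 0h C (FRS1, GUS1), a 4h array (all but TEF2), 8h A (all but TEF2 and SUI2), 8h C (all but THS1 and FRS1), 30h A (SUP35, THS1, FRS1) or 30h C (THS1, TEF2, GUS1, SUI2).

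YEF3 was at -1.48 ± 0.41 and KRS1 at -0.90 ± 0.25 at 30h against 8h, just short of the threshold (adjusted p = 0.0649 and 0.0653, limma). Both were called without 0h A (adjusted p = 0.000893 and 0.0132), YEF3 also without 0h B (0.0251) and with only those 2 times in the fit (0.00704), and KRS1 also without 30h C (0.0249). TIF4631 was at -1.17 ± 0.55 (adjusted p = 0.286, and 0.00937 without 0h A). CDC33, SUP45, GCN3, HYP2 and MES1 had changes of -0.21 ± 0.44, -0.24 ± 0.45, 0.38 ± 0.34, 0.29 ± 0.25 and 0.57 ± 0.32, none of which passed (lowest adjusted p = 0.388).

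**Figure D3:**
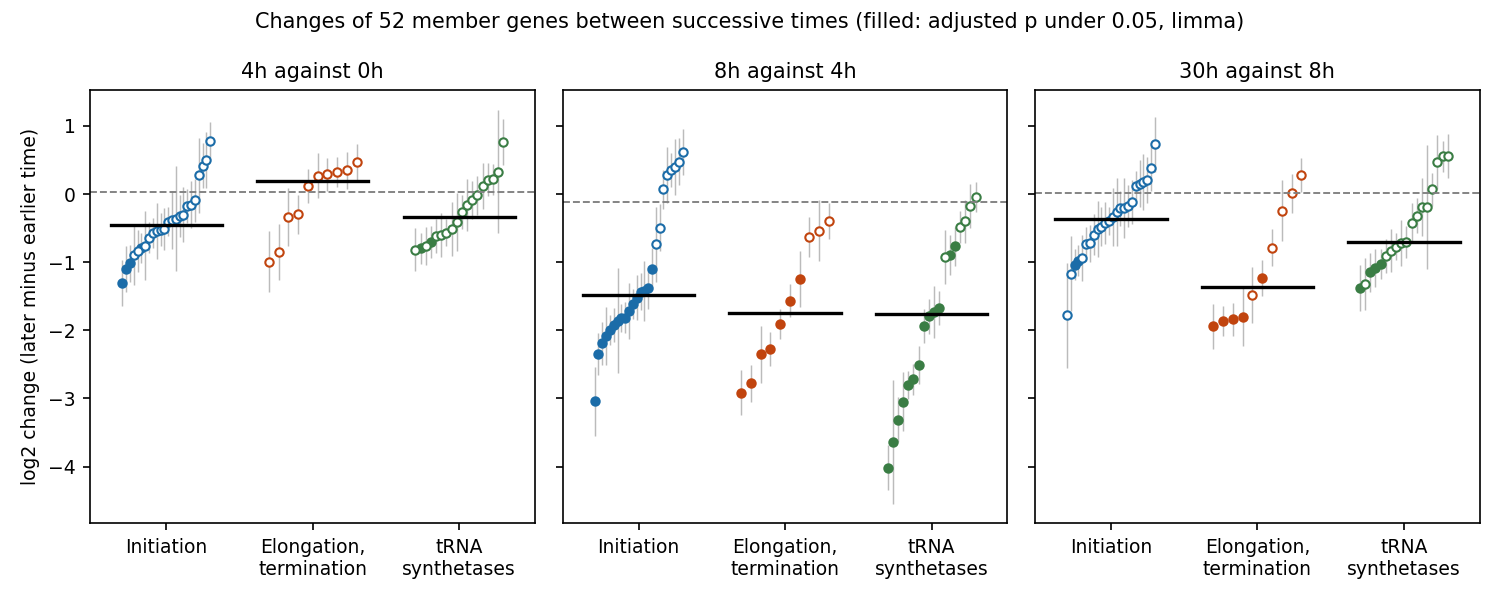
Log2 change of each member (y axis, later minus earlier time) for the 3 successive steps, 1 panel each, by class. Points are genes with the limma standard error as bars, filled where the adjusted p was under 0.05, black lines are class medians and the dashed grey line is the median of all tested genes. Filled points number 6, 36 and 11 in the panels from left to right, and all of them lie below 0.

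From the first to the last sampling the members fell in nearly every family. At 30h against 0h, 44 of the 52 were lower (84.6%), against 33.3% of all tested genes, and 0 were higher, against 31.2%. None was higher at an unadjusted p under 0.05 either, against 1803 of the 5503 tested genes (limma). The median change was -2.57, against -0.11 for all tested genes. The falls comprised 10 of 10 elongation and termination factors (median -3.11), 17 of 18 synthetases (median -2.93) and 17 of 24 initiation factors (median -2.35). The count was lowest, at 39, without 0h B and highest, at 47, without 0h A when single arrays were left out. On the deposited scale it was 52, with 3635 of the 5503 tested genes lower. This comparison shares its arrays with the 3 above.

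Initiation begins with eIF2, which carries GTP and the initiator tRNA. All 3 eIF2 subunit genes, SUI2, SUI3 and GCD11, were lower at 8h against 4h and at 30h against 0h. Of all tested genes 33.9% and 33.3% were. SUI2 had 379, 326 and 377 at 0h, then 225, 228 and 240.4 at 4h, 52.3, 67.0 and 81.1 at 8h and lastly 39.9, 28.9 and 32.2 at 30h, so that no array of a later time reached any array of an earlier one. Its fall at 30h against 0h was 3.43 ± 0.23 (adjusted p = 5.71e-08, limma). SUI3, for the beta subunit, had 93.7, 76.2 and 77.0 at 30h, against 247, 634 and 520.5 at 0h, and GCD11, for the gamma subunit, had 51.4, 76.8 and 45.7 at 30h, against 168, 295 and 361 at 0h.

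Of the 5 subunit genes of eIF2B, which recharges eIF2 with GTP, 2 were lower in each of these comparisons. That share of 40% was near the 33.9% and 33.3% of all tested genes. GCD6 and GCD7, for the epsilon and beta subunits, were lower at 8h against 4h and at 30h against 0h. GCD6 had 61.6, 53.1 and 39.4 at 8h, against 137, 132 and 140.1 at 4h. GCD1, GCD2 and GCN3, for the gamma, delta and alpha subunits, passed in neither comparison. GCN3 ended at 74.7, 91.4 and 94.7 at 30h, against 85.4, 113 and 111 at 0h, a change of -0.24 ± 0.34 (adjusted p = 0.549, limma), with overlapping arrays. GCD1 had 139.9, 104 and 81.5 at 30h, against 94.6, 169 and 208 at 0h. Whether the subunits differed from one another was not tested.

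Of the 6 eIF3 genes, whose products hold the initiation complex together, 5 were lower at 8h against 4h and at 30h against 0h. That was 83.3%, against 33.9% and 33.3% of all tested genes. TIF35, for the g subunit, had 559, 663 and 665 at 0h, then 498, 408 and 371 at 4h, 117, 116 and 88.8 at 8h and lastly 60.0, 47.5 and 49.2 at 30h. Its arrays separated at every step, as those of SUI2 did. TIF34, PRT1, RPG1 and HCR1, for the i, b, a and j subunits, had 30h signals between 37.3 and 76.3, against 85.2 to 678 at 0h. NIP1, for the c subunit, was the exception, with 434, 721 and 937 at 30h, against 181, 529.7 and 546 at 0h. Its 0h and 30h arrays overlapped, and the change of 0.83 ± 0.41 at 30h against 0h did not pass (adjusted p = 0.0883, limma). It was called higher without 0h B (1.05, adjusted p = 0.0471), 0h C (1.09, 0.0438) or 30h A (1.16, 0.0381) and with the sample letter as a block (0.0368). On the deposited scale NIP1 was instead called lower, as were all 52 members and 3635 of the 5503 tested genes.

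Of the 6 genes for cap binding and scanning, 3 were lower at 8h against 4h (50%, against 33.9% of all tested genes). At 30h against 0h 4 were (66.7%, against 33.3%). CDC33 had 209.5, 152 and 65.6 at 30h, against 399.8, 862 and 1161 at 0h, a change of -2.53 ± 0.44 (adjusted p = 0.000206, limma). PAB1 had 235, 283 and 279 at 30h, against 214, 848 and 899.9 at 0h. Its 30h arrays lay between 0h A and the other 0h arrays, which is an overlap. TIF3, for eIF4B, was above background on no array at 8h or 30h, and was at least 1.20-fold lower at 8h than at 4h and at least 2.73-fold lower at 30h than at 0h (adjusted p = 0.0468 and 0.000436). TIF2 had 1019, 1267 and 1402 at 30h, against 841, 1437 and 1616 at 0h. It passed no test in the quantile normalised fit with all arrays. With only 4h and 8h in the fit it was called higher at 8h (0.37, adjusted p = 0.0396, limma). On the deposited scale TIF2 was called lower at 30h against 0h, as were all 52 members and 3635 of the 5503 tested genes. Its shared probes may also read TIF1. TIF5 fell by 4.06 ± 0.50 at 30h against 0h (adjusted p = 9.91e-06) and was above background on 2 of 3 arrays at 30h, and FUN12, for the subunit-joining factor eIF5B, had 124, 101 and 125 at 30h, against 585, 817 and 752 at 0h.

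All 4 genes of eEF1 were lower at 30h against 0h, as were 33.3% of all tested genes. TEF4 and CAM1 encode alternative gamma subunits of eEF1B, the exchange factor of eEF1A, and EFB1 its catalytic alpha subunit. TEF4 had 569, 937 and 952 at 0h, then 973, 1065 and 891 at 4h, 323, 349 and 318 at 8h and lastly 94.6, 74.4 and 111 at 30h, a fall of 3.12 ± 0.24 over the whole period (adjusted p = 1.75e-07, limma). CAM1 had 255, 242 and 189 at 0h, then 314, 317 and 309.8 at 4h, 44.5, 41.1 and 52.2 at 8h and lastly 30.6, 34.5 and 17.5 at 30h. At 4h the arrays of CAM1 lay above those of 0h and the arrays of TEF4 overlapped them, and neither change passed, though CAM1 was called higher with median centring (adjusted p = 0.0409, limma). TEF4 then fell at both later steps, and CAM1 passed at 8h against 4h alone of the 3 steps. EFB1 had 571, 445 and 319.6 at 30h, against 588, 994 and 935 at 0h, with no overlap. TEF2 had 1742, 1917 and 2401 at 8h, against 2705, 3011 and 2231 at 4h, which did not pass, and 1155, 748 and 716 at 30h.

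EFT2, YEF3, HYP2 and STM1 were lower at 8h against 4h and at 30h against 0h, as were 33.9% and 33.3% of all tested genes. STM1 had 1065, 1068 and 1053 at 4h, against 562, 1091 and 1121 at 0h, before its later falls, and it fell by 4.59 ± 0.33 on the log2 scale at 30h against 0h (adjusted p = 9.77e-08, limma). YEF3 ended at 187, 212 and 169 at 30h, a fall of 3.58 ± 0.41 against 0h (adjusted p = 4.68e-06). HYP2 had 192, 222 and 180.5 at 8h and 313, 236 and 189 at 30h, against 1000.0, 935 and 931 at 4h, so its fall lay between 4h and 8h. Over the whole period it fell by 1.87 ± 0.25 (adjusted p = 1.97e-05).

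Both release factors were lower at 30h against 0h, as were 33.3% of all tested genes. SUP35 had 135, 471 and 529.7 at 0h, then 255, 260.4 and 250.2 at 4h, 54.1, 39.0 and 58.9 at 8h and lastly 11.2, 13.0 and 19.9 at 30h, a change of -4.50 ± 0.42 over the period (adjusted p = 8.28e-07, limma). Its deposited signals at 30h were 12.7, 18.9 and 21.2, against backgrounds of 12.6, 14.9 and 13.9, which limits the fold. With a pseudocount of 16 its change at 30h against 8h was -1.16 and did not pass (adjusted p = 0.11, limma). SUP45 had 402, 614 and 685 at 0h, then 288, 279 and 267 at 4h, 343, 198 and 102 at 8h and lastly 217, 243 and 79.1 at 30h, a fall of 1.78 ± 0.45 (adjusted p = 0.00311). The 8h arrays of SUP45 spanned those of 4h, and no single step passed for it.

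Among synthetases, THS1 fell furthest, with 19.9, 16.3 and 15.1 at 30h, against 411, 782 and 873 at 0h, a change of -5.27 ± 0.33 (adjusted p = 4.88e-08, limma). It was above background on 3 of 3 arrays at 30h, but at a median percentile of 5.98, which limits the fold. With a pseudocount of 16 its change at 30h against 8h was -0.92 and did not pass (adjusted p = 0.107, limma). GRS1, GUS1, HTS1 and KRS1 had changes of -4.14 ± 0.20, -3.68 ± 0.28, -3.65 ± 0.43 and -3.18 ± 0.25 at 30h against 0h (highest adjusted p = 6.11e-06). KRS1 had 593, 851 and 897 at 0h, then 511, 512 and 482 at 4h, 154, 157 and 163 at 8h and lastly 64.2, 80.5 and 117 at 30h. Its arrays did not overlap at any step. GUS1 had 1082, 822 and 881 at 0h and 841, 860.2 and 897 at 4h, then 162, 168 and 129.9 at 8h and 116, 64.2 and 49.9 at 30h.

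At 8h against 4h, 5 synthetase genes did not pass, namely ALA1, GLN4, MES1, WRS1 and TYS1, for the alanyl, glutaminyl, methionyl, tryptophanyl and tyrosyl enzymes. TYS1 had 284, 302 and 197 at 8h, against 253, 268 and 272 at 4h, and then 127, 132 and 119 at 30h, with a call at 30h against 8h. GLN4 had 117, 188 and 107 at 30h, against 860.2, 411 and 472 at 0h, with no overlap. ALA1 had 368, 469 and 551 at 30h, against 646, 687 and 808 at 0h. MES1 was the 1 synthetase not called at 30h against 0h, with 192, 167 and 228 at 30h, against 121, 307 and 306 at 0h (change of -0.21 ± 0.32, adjusted p = 0.58, limma), and it was called lower without 0h A (-0.65, adjusted p = 0.0121). The 2 subunits of the phenylalanyl enzyme were both lower at 8h against 4h: FRS1 had 259, 317 and 172 at 8h, against 388, 411 and 436 at 4h. The other synthetases, for asparagine (DED81), isoleucine (ILS1), leucine (CDC60), serine (SES1) and valine (VAS1), were each lower at 8h against 4h and at 30h against 0h, with 30h signals of 28.4 to 201, against 139 to 778 at 0h.

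At 30h against 0h, TIF4631 fell by 1.63 ± 0.55 (adjusted p = 0.0183, limma), with 31.9, 39.2 and 57.2 at 30h, against 36.9, 225 and 258 at 0h. The call ended when 0h B, 0h C, 30h A or 30h B was left out (highest adjusted p = 0.0941) and with median centring (0.0515), and the change was -2.49 without 0h A. Its paralogue TIF4632, for the second form of eIF4G, had 131, 119.7 and 166 at 30h, against 81.9, 93.1 and 157 at 0h. TIF4632 passed no test between 2 times in the quantile normalised fit with all arrays. On the deposited scale it was called lower at 30h against 0h, as were all 52 members and 3635 of the 5503 tested genes. At 4h against 0h it was called higher without 0h C (1.05, adjusted p = 0.0189, limma) and with median centring (0.97, adjusted p = 0.0181).

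Paralogues of YEF3 and HYP2 outside the list were measured too. HEF3, a second eEF3 gene, had 14.3, 38.5 and 35.5 at 0h, then 66.0, 67.2 and 75.7 at 4h, 243, 290.3 and 381 at 8h and lastly 269, 383 and 467 at 30h. It rose by 1.37 ± 0.35 at 4h against 0h (adjusted p = 0.0133), an interval in which the change was 0.90 without 0h A and the call ended without 4h C (0.0522) and with only those 2 times in the fit (0.0554). At 8h against 4h its arrays did not overlap either, and at 30h against 0h it rose by 3.76 ± 0.35 (adjusted p = 7.86e-07, limma) while YEF3 fell by 3.58. On the deposited scale that rise of HEF3 was 1.71 (adjusted p = 0.0085, limma). HEF3 was above background on 2 of 3 arrays at 0h, which limits these folds. The 2 probe sets were not tested against each other. ANB1, an eIF5A gene that in S. cerevisiae is expressed when oxygen is low, had 158, 121 and 143 at 4h, against 77.3, 86.1 and 68.2 at 0h (change of 0.86 ± 0.30, adjusted p = 0.0506), a change called when any 8h array was left out (lowest adjusted p = 0.0253) and with median centring (0.00988). It fell by 1.59 ± 0.30 at 8h against 4h (adjusted p = 0.000371), as HYP2 did, and was at 0.14 ± 0.30 at 30h against 8h and -0.58 ± 0.30 at 30h against 0h (adjusted p = 0.843 and 0.1). EFT1, the duplicate of EFT2, was not named on a probe set of its own.

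**Figure D4:**
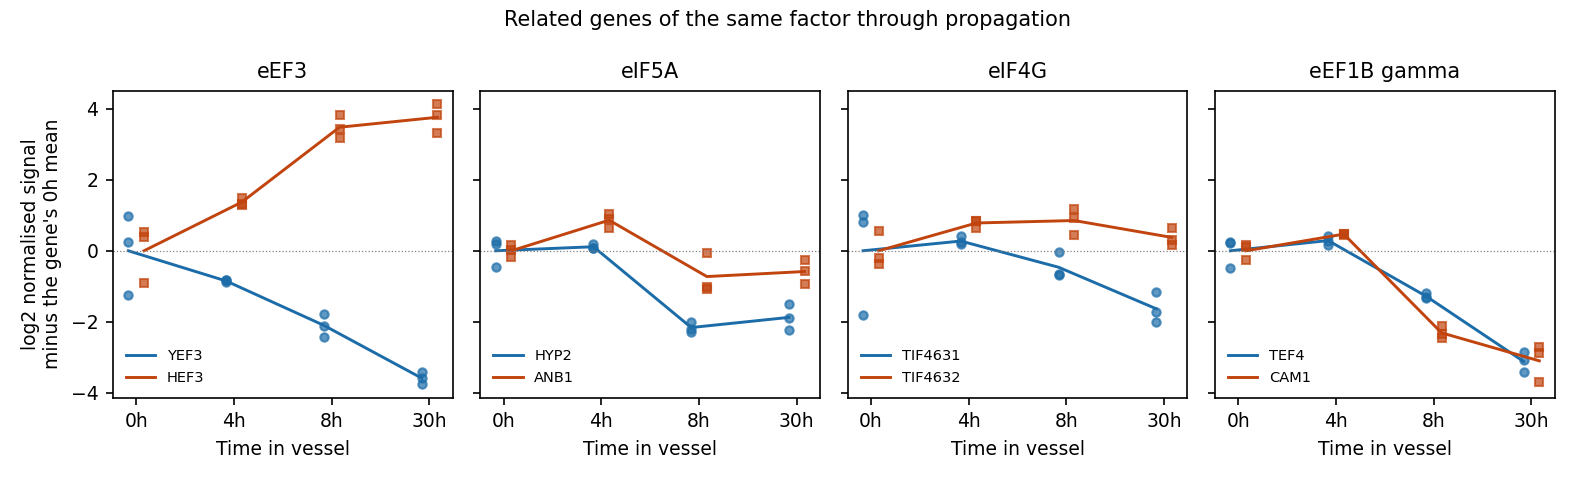
Log2 normalised signal minus the gene's own 0h mean (y axis) at the 4 times (x axis) for 4 pairs of genes that encode forms of the same factor. Points are arrays (n = 3 per time) and lines join the means. HEF3 climbs as YEF3 falls, HYP2 and ANB1 drop between 4h and 8h, TIF4632 stays above its 0h mean while TIF4631 ends below its own, and TEF4 and CAM1 both end far below theirs.

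Other cytosolic translation genes, such as regulators, recycling factors and synthetase partners, were mixed. Of 29 tested, 4 were higher (13.8%) and 6 lower (20.7%) at 4h against 0h, where 11.8% of all tested genes were called in each direction. At 8h against 4h, 3 were higher (10.3%, against 30.7% of all tested genes) and 16 lower (55.2%, against 33.9%). At 30h against 0h, 4 were higher (13.8%, against 31.2%) and 17 lower (58.6%, against 33.3%). At 30h against 8h 0 passed, against 0.909% higher and 2.73% lower of all tested genes. Without adjustment, at p under 0.05, 1 was higher and 2 lower, against 482 and 496 of the 5503 tested genes (limma). ARC1, whose protein binds the MES1 and GUS1 enzymes, fell by 3.19 ± 0.43 at 8h against 4h and by 3.88 ± 0.43 at 30h against 0h. GUS1 moved the same way and MES1 did not pass, a difference that was not tested. GIR2, a partner of the eIF2 kinase activator GCN1, fell by 2.50 ± 0.33 and 3.73 ± 0.33 in the same comparisons. ARC1 was above background on 2 of 3 arrays at 30h, as were GIR2 and DED1 at 8h. The helicase gene DED1 fell by 2.67 ± 0.96 at 8h against 4h (adjusted p = 0.0253, limma). The call was lost when 4h A, 4h B, 8h B or 8h C was left out (highest adjusted p = 0.0797) or with median centring (0.0626). Its relative DBP1 rose by 1.38 ± 0.30 at 4h against 0h (adjusted p = 0.00552), and by 0.80 with a pseudocount of 16. DBP1 was above background on 2 of 3 arrays at 0h. TMA46, for a ribosome-associated protein, fell by 1.50 ± 0.46 at 4h against 0h (adjusted p = 0.03), and the call ended without 0h B, 0h C or any 4h array (highest adjusted p = 0.0953).

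Among genes for mitochondrial translation the calls at 4h against 0h were rises. Of 21 tested, 4 were higher (19%) and 0 lower, against 11.8% of all tested genes in each direction. None was lower at an unadjusted p under 0.05 either, against 994 of the 5503 tested genes (limma). At 8h against 4h, 2 were higher (9.52%, against 30.7%) and 8 lower (38.1%, near the 33.9% of all tested genes). At 30h against 0h, 5 were higher (23.8%, against 31.2%) and 6 lower (28.6%, against 33.3%). At 30h against 8h 0 passed, against 0.909% higher and 2.73% lower of all tested genes. Without adjustment, at p under 0.05, 1 was higher and 3 lower there, against 482 and 496 of the 5503 tested genes (limma). Whether these genes differed from the cytosolic members was not tested. The mitochondrial lysyl, phenylalanyl and threonyl synthetase genes MSK1, MSF1 and MST1 rose by 1.32 ± 0.25, 1.68 ± 0.53 and 1.01 ± 0.32 at 4h against 0h (adjusted p = 0.00242, 0.0349 and 0.0357). The call of MSK1 held with any 1 array left out. Those of MSF1 and MST1 ended without 0h A or any 4h array, that of MSF1 also without 0h B and that of MST1 also without 0h C (highest adjusted p = 0.104 and 0.11). At 8h MSF1 was above background on no array and was at least 5.62-fold lower than at 4h. TUF1 and MEF1, for the mitochondrial elongation factors Tu and G, fell by 3.86 ± 0.48 and 3.67 ± 0.55 at 8h against 4h and by 3.84 ± 0.48 and 3.03 ± 0.55 at 30h against 0h. These folds are limited by background: TUF1 exceeded it on 2 of 3 arrays at 30h, and MEF1 on 2 of 3 arrays at 8h and on 1 of 3 at 30h. MEF1 had 46.5, 7.71 and 7.62 at 30h, and its change against 0h was -4.00 to -2.64 with single arrays left out. MEF2, for a mitochondrial factor of ribosome recycling, rose by 2.94 ± 0.26 at 30h against 0h, with 659.9, 575 and 867 at 30h, against 127, 76.4 and 74.0 at 0h, and was at 0.36 on the deposited scale (adjusted p = 0.481). On that scale the rises at 4h against 0h of MSK1, MSF1, MST1, DBP1 and HEF3 did not pass either (lowest adjusted p = 0.268, limma).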

How the data were processed

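Total RNA of 12 samples was labelled with biotin and measured on 1 array each, 3 arrays per time. The deposited values are intensity signals on a linear scale for 10928 probe sets. Per the submitters' processing notes, GCOS 5.0 and MAS5 were used. Scaling, detection calls and the genome build behind the probes are not given in the sources used here. The number of arrays limits the precision.

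Gene names came from GEO's annotation of the platform, which can be out of date. It gave 5685 probe sets a single S. cerevisiae gene and 4916 a single S. pombe gene, with 46 naming several, 68 naming none and 213 being controls. One probe set stood for a gene, those without an ending for shared probes first and then the brighter, which gave 5635 genes. A gene was tested if its mean log2 signal on the 12 arrays exceeded that of 95% of S. pombe probe sets (a signal of 7.74): 5503 did and 132 did not. Log2 signals were quantile normalised over the tested genes, because the deposited arrays did not share a scale. A gene under the array's own S. pombe 95th percentile on all arrays of a time has only a bound there, the bright mean against the higher of that percentile and the gene's own value.

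Tests used R 4.3.3 and limma 3.58.1 (lmFit, eBayes with trend) with 1 coefficient per time and 8 residual degrees of freedom. They were two-sided, with Benjamini-Hochberg adjustment over all 5503 genes, a threshold of 0.05 and no fold minimum. The fit was tested on simulated data. Members and lists were chosen with earlier results of these data known. Changes are printed for the 8 members with the largest called changes without overlap in each comparison, for 10 members chosen by role (CDC33, TIF4631, SUI2, GCN3, TEF4, YEF3, HYP2, SUP45, KRS1 and MES1), for the 3 largest called changes of each further list, and for ANB1. Outside this rule, values are printed for SUI1, NIP1, TIF2, TIF4632 and CAM1 because an alternative called them higher. Bounds for TIF3 and changes of genes singled out later are printed too. Alternatives were median centring, the deposited scale, a pseudocount of 16 on signals scaled to a trimmed mean of 100, no filter, the mean over a gene's probe sets, the sample letter as a replicate block, the 2 times fitted alone, and each array left out.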

Additional observations from a re-analysis of the deposited data

How the results depend on the processing

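The falls of the members at 8h against 4h and at 30h against 0h, and the F test, stayed within 1.5 times of their counts under every alternative run. With single arrays left out they were 34 to 40, 39 to 47 and 43 to 50. On the deposited scale they were 49, 52 and 52, so every member was called lower at 30h against 0h there. How many of all tested genes passed the F test on that scale was not counted. The other counts were less steady. At 4h against 0h, 6 members were lower, and 12 with median centring, 33 on the deposited scale, 12 with the 2 times fitted alone, and 0 (without 4h A or 4h B) to 19 (without 0h A) with single arrays left out. Members higher in that comparison numbered 3 with median centring (TIF4632, CAM1 and DPS1) and 0 to 1 (TIF4632, without 0h C) with arrays left out. At 30h against 8h, 11 were lower, and 4 with median centring, 0 on the deposited scale, 7 with the pseudocount of 16, and 3 (without 8h B or 30h B) to 20 (without 0h A) with arrays left out. At 8h against 4h, 1 member was higher with median centring (GCN3), 1 with the 2 times fitted alone (TIF2) and 0 to 1 with arrays left out (GCN3 without 8h A, SUI1 without 8h C). At 30h against 0h, 0 to 1 were higher with arrays left out (NIP1, without 0h B, 0h C or 30h A). The cause was not tested.

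Of all tested genes, the deposited scale called 45 higher and 2609 lower at 4h against 0h, 603 and 2842 at 8h against 4h, 3 and 2 at 30h against 8h, and 354 and 3635 at 30h against 0h; median centring called 1025 and 907 at 4h against 0h and 6 and 43 at 30h against 8h. Leaving out 0h A gave 255 higher and 313 lower calls at 30h against 8h, and leaving out 4h B gave 320 and 353 at 4h against 0h. On the deposited scale the median member moved by -1.50 and the median tested gene by -1.17 at 4h against 0h, by -3.33 and -1.28 at 8h against 4h, by 0.13 and 0.58 at 30h against 8h, and by -4.74 and -1.86 at 30h against 0h. Signs turned there at 4h against 0h for TIF4631 (-0.89), TEF4 (-0.74), HYP2 (-0.96), MST1 (-0.044) and ANB1 (-0.18), at 8h against 4h for GCN3 (-0.39) and at 30h against 8h for CDC33 (0.40) and SUP45 (0.36).

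With single arrays left out, values that crossed 0 were TIF4631 and HYP2 at 4h against 0h (-0.61 to 0.76 and -0.11 to 0.24), GCN3, SUP45, ANB1 and CDC33 at 30h against 8h (-0.035 to 0.81, -0.71 to 0.27, -0.034 to 0.48 and -0.57 to 0.28) and MES1 at 30h against 0h (-0.65 to 0.013). None of these passed the test with all arrays. Of the 90 named changes, 78 kept direction and side of the threshold with median centring, 56 on the deposited scale, 84 with the pseudocount, 90 without the filter and 90 with the mean over probe sets. With the letter as a replicate block 87 did, 1 member (NIP1) was higher at 30h against 0h, and ALA1 at 4h against 0h and THS1 and FRS1 at 30h against 8h were not called (adjusted p = 0.0575, 0.0593 and 0.0662, limma). Deviations from the time means correlated at 0.188 between 8h A and 30h A and at 0.237 between 8h C and 30h C, and at -0.21 to 0.0566 for each other pair of the same letter, so the letters were not taken as pairing the samples. Brightness over background limited TIF3, FRS2, TIF5, HTS1 and GCD7, which were above background on 0 to 2 of 3 arrays at 8h.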

Other observations

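Of the S. pombe probe sets, 16 carried a symbol that a member also has. Their median deposited signal was 0.659 to 8.78 per array, and 0 to 3 of them exceeded their array's 95th percentile of S. pombe probe sets.

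Some of the other cytosolic genes were singled out after their values were seen. Their changes were not run through the alternatives or with arrays left out. DOM34, for a factor that frees stalled ribosomes, had 518, 457 and 496 at 8h, against 121, 108 and 119.7 at 4h, and rose by 2.08 ± 0.25 (adjusted p = 6.84e-06, limma), after 308, 222 and 227 at 0h. Its partner HBS1 had 40.7, 28.4 and 24.1 at 8h, against 70.8, 73.6 and 70.4 at 4h, and fell by 1.24 ± 0.26 (adjusted p = 0.000988). The pair was not tested against each other. CAF20 and EAP1 encode proteins that bind eIF4E in place of eIF4G. CAF20 had 294, 294 and 315 at 4h, against 1134, 575 and 631 at 0h (a fall of 1.30 ± 0.27, adjusted p = 0.00372), and EAP1 had 144, 145 and 142 at 4h, against 62.3, 70.4 and 70.9 at 0h (a rise of 1.09 ± 0.21, adjusted p = 0.00286). At 30h EAP1 had 213, 201 and 149.6 and CAF20 had 323, 338 and 402.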
